A study of Caenorhabditis elegans with 2 samples.

Results

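The peaks described here are HLH-30 peaks that lay between head-to-head, or divergent, genes on the 5 autosomes of Caenorhabditis elegans. A peak was a member when its summit, the base of highest signal, was outside every protein-coding gene span, the nearest protein-coding gene on its left was on the minus strand and the nearest on its right was on the plus strand. By this rule 504 peaks were members, of 1541 autosomal peaks and 1959 peaks in all in the optimal list, the set that the authors kept after an irreproducible discovery rate (IDR) comparison of replicates. The animals were whole late embryos of hermaphrodite strain OP433, age unknown, which is mutant for unc-119 (allele tm4063, chromosome III) and carries the integrated transgene wgIs433. The transgene makes HLH-30 with GFP and FLAG at its C-terminal end, and chromatin was precipitated with an antibody against GFP, so the tagged protein was mapped in a single transgenic line and in all cell types mixed. The series has 1 group of 2 biological replicates and no second stage or genotype. The control experiment named in the labels was not analysed here.

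HLH-30 is the worm member of the TFEB family of basic helix-loop-helix leucine zipper proteins, which bind the E-box word CACGTG as dimers and are known for control of autophagy and lysosome genes. In a divergent gap a single stretch of DNA lies upstream of both neighbours, so a peak there has a gene start on each side. Many worm transcripts receive a spliced leader after their original 5′ end has been removed, so annotated starts, which are the gene edges used here, can lie downstream of where transcription begins.

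The sequences below are the 101 bases centred on member summits, from the RefSeq sequence of WBcel235 (the same assembly as ce11), plus strand, 5′ to 3′. They were chosen as strong members that carry the words on which the results turn. In the first group the capitals mark the E-box CACGTG; the last line of that group has it inside the longer word TCACGTGA.
F56C9.10/gsp-2, chrIII:7335404-7335504: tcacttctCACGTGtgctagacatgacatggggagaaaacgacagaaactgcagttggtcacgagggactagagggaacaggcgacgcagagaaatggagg
W03C9.5/mex-1, chrII:11967642-11967742: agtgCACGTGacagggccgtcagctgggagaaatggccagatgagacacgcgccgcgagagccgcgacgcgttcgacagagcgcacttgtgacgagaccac
T04C4.3/fnip-2, chrIV:2219609-2219709: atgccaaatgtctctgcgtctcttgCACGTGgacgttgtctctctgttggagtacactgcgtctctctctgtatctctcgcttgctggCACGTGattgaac
Y55F3AM.9/atg-3, chrIV:1009706-1009806: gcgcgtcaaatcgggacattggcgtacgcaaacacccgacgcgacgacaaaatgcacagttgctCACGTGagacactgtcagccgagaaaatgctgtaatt
The next line has in capitals both copies of the variant E-box CATGTG (on the minus strand it reads CACATG) at the member with the second highest signal.
lgg-2/fic-1, chrIV:10936148-10936248: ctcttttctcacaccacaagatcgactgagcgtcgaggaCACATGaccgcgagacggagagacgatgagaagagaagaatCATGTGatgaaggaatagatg
The next line has in capitals the single GAGAGA of the member with the highest signal.
K01G5.10/tasp-1, chrIII:10759231-10759331: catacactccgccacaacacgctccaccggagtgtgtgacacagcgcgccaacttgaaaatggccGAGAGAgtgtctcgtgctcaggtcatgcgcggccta
The last lines have in capitals the 9-base word CTGCGTCTC, or its reverse complement GAGACGCAG in the line of R107.5/cls-2, where an E-box is also present.
B0546.4/mai-2, chrIV:3384712-3384812: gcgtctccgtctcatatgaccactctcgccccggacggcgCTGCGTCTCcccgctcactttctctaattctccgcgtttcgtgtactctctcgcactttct
F38A6.4/hif-1, chrV:20778327-20778427: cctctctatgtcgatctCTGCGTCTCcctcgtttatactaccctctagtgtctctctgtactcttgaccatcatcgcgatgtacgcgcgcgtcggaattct
R107.5/cls-2, chrIII:9054018-9054118: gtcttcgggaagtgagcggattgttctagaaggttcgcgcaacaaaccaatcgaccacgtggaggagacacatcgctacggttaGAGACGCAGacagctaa

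Divergent gaps held more peaks for their number and their length than other gaps. Of 3641 autosomal divergent gaps, 448 held a summit of the optimal list (12.3%, exact 95% binomial interval 11.3 to 13.4%), whereas 393 of 8715 tandem gaps, between genes on the same strand, did so (4.51%, 4.08 to 4.97%). Convergent gaps, between gene ends, held one in 28 of 2341 cases (1.20%). Per megabase there were 50.4 member summits in divergent gaps (exact Poisson interval 46.1 to 55.0), against 27.1 summits in tandem gaps (24.6 to 29.8) and 9.54 in convergent gaps (6.56 to 13.4). Divergent gaps thus made up 33.8% of autosomal gap bases and 51.8% of gap peaks. The gene spans themselves held 568 peaks, and the members were 32.7% of all autosomal peaks (30.4 to 35.1%). These intervals cover counting only, since peaks of one pooled list are not biological replicates. A divergent gap is faced by a start on each side and a tandem gap by a single start, which these shares and densities do not take into account.

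The difference between gap classes was widest in short gaps. Of 868 divergent gaps of up to 500 bp, 10.7% held a summit (8.74 to 13.0%), against 1.72% of 3262 such tandem gaps (1.30 to 2.22%). Tandem gaps were classed by strand alone, so gaps between genes transcribed together were not set apart. Above 5000 bp the shares were 18.4% of 602 divergent gaps (15.4 to 21.8%) and 11.8% of 831 tandem gaps (9.68 to 14.2%). Most member gaps, 405 of 448, held 1 summit, 35 held 2, 5 held 3, 2 held 4 and 1 held 6. Members were denser on chromosomes III and I, at 78.5 and 77.8 summits per megabase of divergent gap, than on chromosomes II, IV and V, at 51.7, 39.1 and 30.1. Counts by chromosome were 115 on I, 99 on II, 114 on III, 91 on IV and 85 on V.

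**Figure D1:**
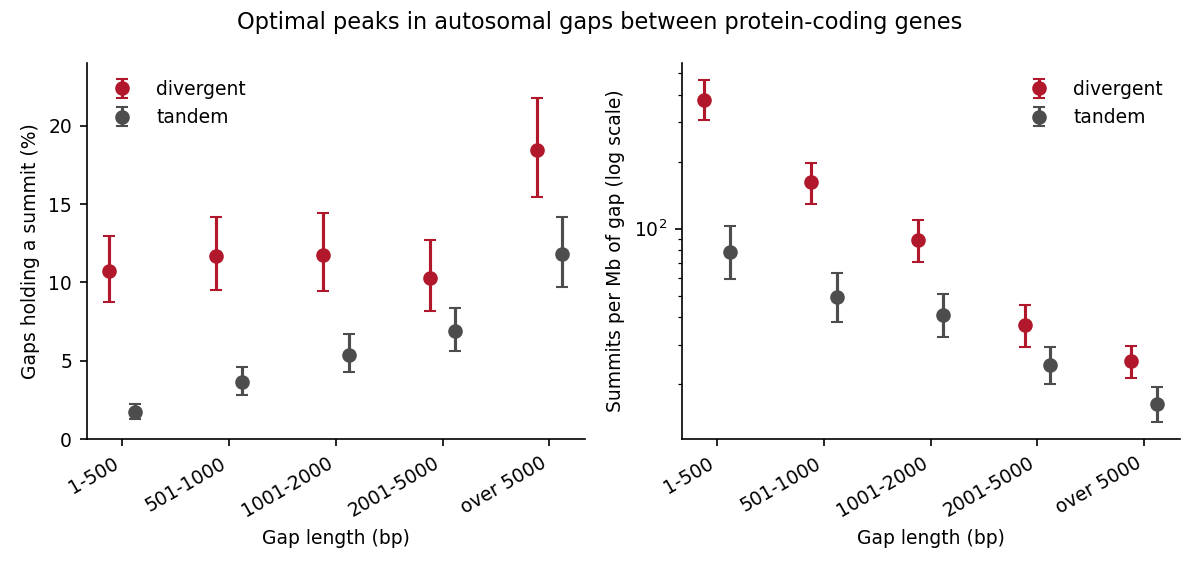
Share of autosomal gaps that hold an optimal summit (left, %) and summits per megabase of gap (right, log scale) by gap length in bp, for divergent gaps (red) and tandem gaps (grey). Points are values and bars are exact 95% binomial (left) or Poisson (right) intervals. In gaps of up to 500 bp the shares are 10.7% of divergent and 1.72% of tandem gaps, and the divergent points lie above the tandem points in all 5 length classes.

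The nearer gene start was within 500 bp of most members, which in short gaps the gap length itself sets. The median distance from the summit to the nearer start was 293 bp (quartiles 147 and 993 bp, range 2 to 10836 bp), and to the farther start 1411 bp. The nearer start was within 500 bp of 320 members (63.5%), while the single start that faces a tandem gap was within 500 bp of 192 of 436 tandem summits (44.0%); a divergent gap is faced by 2 starts, so the classes are unequal in this by construction and no test was made. All 93 members in gaps of up to 500 bp and all 90 in gaps of 501 to 1000 bp have a start that near whatever their position, while in gaps over 5000 bp 34 of 150 members did (22.7%). Both starts lay within 500 bp of 135 members (26.8%, 23.0 to 30.9%), 1 start lay that near to 185, and neither did for 184. The left gene was the nearer in 236 of 504 members (46.8%, 42.4 to 51.3%).

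In the narrowest gaps a single summit sat close to both genes. The narrowest gap with a member was the 66 bp between gei-14 and slc-25A32 on chromosome II, where the summit was 43 and 24 bp from the 2 starts with signals of 14.0 in replicate 1 and 33.0 in replicate 2. The 91 bp gap between ears-2, a glutamyl-tRNA synthetase gene, and uncp-18 had a summit with signals of 22.5 and 40.0 in replicates 1 and 2. Of 239 divergent gaps under 200 bp, 9 held a member. The strongest member in a gap under 500 bp was between nxf-1, a messenger RNA export receptor gene, and C15H11.11 on chromosome V, with signals of 151 and 167 in replicates 1 and 2. The member between T26A8.4 and pdtf-1 on chromosome IV lay in a 144 bp gap, 62 and 83 bp from the starts, with signals of 94.7 and 171.

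No difference from tandem gaps in the share of summits in the central part of the gap passed the test. That share cannot show a lean toward either gene, and the test took no account of gap length. With each gap cut into equal left, central and right parts, the central part held 171 of 504 member summits (33.9%) and 157 of 436 tandem summits (36.0%), a difference of -2.08 percentage points (95% interval -8.18 to 4.01; two-sided Fisher's exact test, p = 0.537). The share of members in the central part was 58.1% in gaps of up to 500 bp, 37.8% in gaps of 501 to 1000 bp, 23.3% in gaps of 1001 to 2000 bp, 20.0% in gaps of 2001 to 5000 bp and 30.7% in longer gaps. In gaps of up to 500 bp the median distances were 111 bp to the nearer and 235 bp to the farther start, and above 5000 bp they were 1689 and 7160.5 bp.

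**Figure D2:**
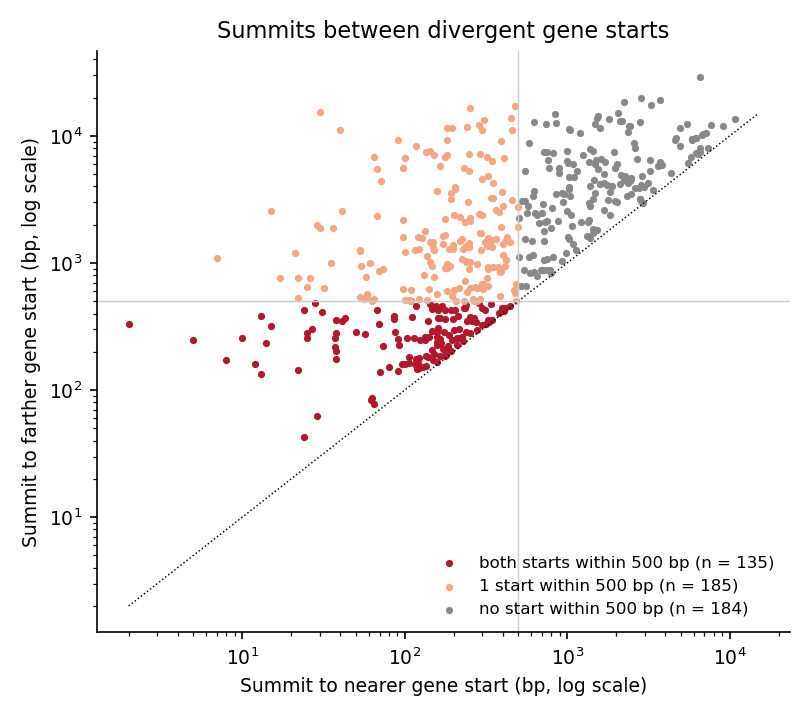
Distance in bp from each of the 504 member summits to its nearer gene start (horizontal, log scale) and its farther gene start (vertical, log scale). The dotted line marks equal distances and the grey lines mark 500 bp; 135 members have both starts within 500 bp, 185 have 1 and 184 have none.

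The signal of members, in the authors' units, had a median of 74.4 (quartiles 57.6 and 112, highest 876), beside 78.2 for tandem peaks and 68.1 for peaks inside gene spans. The 489 strongest peaks of the optimal list included 133 of the 504 members (26.4%) and 126 of the 436 tandem peaks (28.9%). The difference was -2.51 percentage points (95% interval -8.25 to 3.20, Fisher's exact test, p = 0.421). The list ended at a signal of 47.7: the weakest member was between T05B11.4 and hint-3, at 47.6577, and the next divergent peak of the pooled list below it was between gon-14 and cpr-4, at 47.6177.

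The strongest member, K01G5.10/tasp-1, was at chromosome III, 10759105 to 10759493, with a pooled signal of 876. Its signal was 258 in replicate 1 and 618 in replicate 2, ranks 5 and 2 of those lists. The summit was 26 bp from the start of tasp-1 (WBGene00010480, chromosome III, 10759307 to 10763021, plus strand), a threonine aspartase homologue, and 759 bp from that of K01G5.10 (WBGene00010481). The member next in signal was in the gap between lgg-2, an LC3-type Atg8 protein of autophagosome membranes, and fic-1, a Fic-domain protein that transfers AMP, at chromosome IV, 10936018 to 10936361, with a pooled signal of 847 and replicate signals of 320 and 535. Its summit was 295 bp from the start of lgg-2 (WBGene00002981, chromosome IV, 10934196 to 10935903, minus strand) and 1256 bp from that of fic-1, and a second, weaker member in the same gap, with signals of 29.3 in replicate 1 and 48.2 in replicate 2, lay nearer to fic-1, at 400 bp.

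Genes of differing roles flanked the other strong members. Between iff-2, which encodes the translation factor eIF5A, and F54C9.14 on chromosome II, the summit was 69 bp from the iff-2 start, with signals of 237 and 488 in replicates 1 and 2. Between ztf-7, a zinc-finger gene, and lipl-2, a lysosomal lipase family gene, on chromosome V, signals were 232 and 376, and the summit was 343 bp from ztf-7 and 1517 bp from lipl-2. The member between F56C9.10 and gsp-2, a catalytic subunit of protein phosphatase 1, had signals of 189 and 378, and its E-box is among the sequences above. That summit was nearer to F56C9.10, at 138 bp, than to gsp-2, at 1133 bp. Beside W03C9.5 and mex-1, a germline RNA-binding protein gene, signals were 191 and 346. The gap of cdk-7, the kinase that activates other cyclin-dependent kinases, and Y39G10AR.11 held a pair of strong members, 30 bp from the cdk-7 start with signals of 150 and 287 and 133 bp from the Y39G10AR.11 start with signals of 156 and 250. Further down, the member between F38A6.4 and hif-1, the hypoxia-inducible factor, lay 2030 bp from the hif-1 start with signals of 130 and 258.

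Most members were found in both replicates. A summit within 100 bp was present for 490 of 504 members in the replicate 1 list (97.2%, 95.4 to 98.5%) and for all 504 in the replicate 2 list. These lists held 11695 and 30000 peaks. The optimal list was made by comparing replicates, and it equals the 1959 peaks of highest signal with both replicates pooled. High shares were therefore largely set in advance. The 14 members without a match in replicate 1 had pooled signals of 48.6 to 81.9. Restricting each replicate to its 1959 strongest peaks, 366 members were matched in both (72.6%), beside 314 of 436 tandem peaks (72.0%; Fisher's exact test, p = 0.884). Over the 490 matched members signals ran from 9.14 to 320 in replicate 1 (median 27.9) and from 11.2 to 618 in replicate 2 (median 47.8). Spearman's rho between the replicates was 0.66 and Pearson's r of the log2 signals 0.81, given as a description, since the members share 2 libraries and were chosen for high pooled signal.

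**Figure D3:**
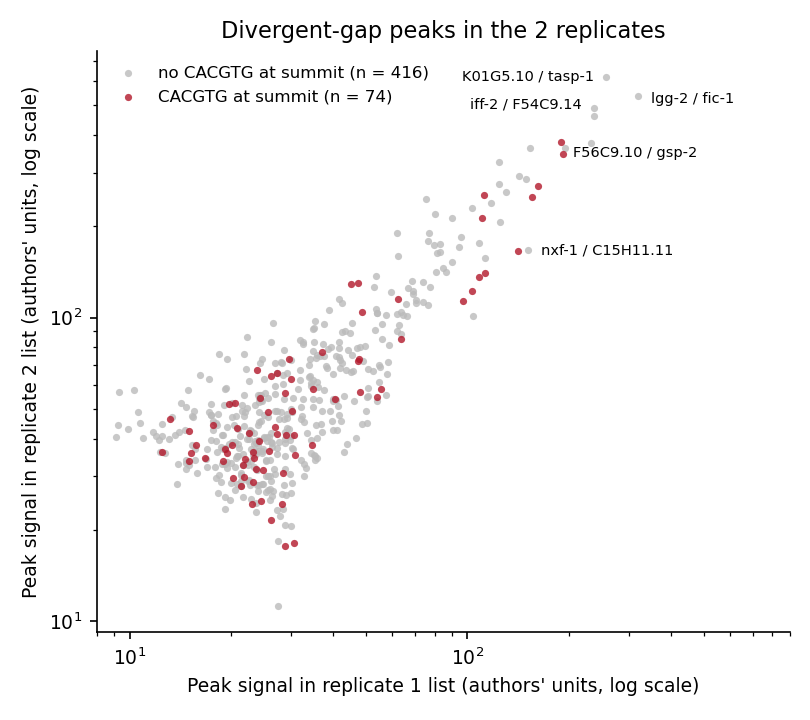
Peak signal of the 490 members matched in both replicate lists, replicate 1 on the horizontal and replicate 2 on the vertical axis (authors' units, log scales). Red points are the 74 of them with CACGTG within 50 bp of the summit and grey points the other 416; red points spread over the range of signals, and the strongest members, K01G5.10/tasp-1 and lgg-2/fic-1, are grey.

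Around each summit, a window reaching 50 bp to either side was searched on both strands for 10 words, as were flanking windows of that size with centres 500 bp away. At the 320 members with a start within 500 bp, a flanking window reached that start or lay beyond it. The words were the E-box words CACGTG, TCACGTGA (which contains the first), CATGTG and CAGCTG, the repeats GAGAGA and CACACA, the overlapping words CGTCTC and ACGCAG, the word CTGCGTCTC that contains both of these (the second on its other strand) and can share its last bases with GAGAGA on the other strand, and GATAAG, which GATA factors bind. The E-box CACGTG was present at 77 members (15.3%, 12.2 to 18.7%), against 1.88% in their flanks, where the two-sided exact sign test gave an adjusted p of 3.29e-14 (Benjamini-Hochberg over 10 words). The longer TCACGTGA was at 18 members (3.57%, against 0.0992% in flanks) and CATGTG at 63 (12.5%, against 3.08% in flanks). Over all 1959 optimal peaks 21.8% held CACGTG, so the members' share was below that of the list as a whole.

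The E-box was rarer at members than at peaks inside genes, and no difference from tandem peaks passed the test. Of the 568 in-gene peaks 31.5% held CACGTG, a difference for members of -16.2 percentage points (95% interval -21.1 to -11.2), with an adjusted p of 6.82e-09 over 20 Fisher's exact tests. TCACGTGA was at 3.57% of members and 10.2% of in-gene peaks (adjusted p = 0.000223, Fisher's exact test), and CATGTG at 12.5% of members and 19.4% of in-gene peaks (adjusted p = 0.0161). Against the 436 tandem peaks, 17.7% of which held CACGTG, the difference was -2.38 points (95% interval -7.20 to 2.35; p = 0.679 after adjustment, Fisher's exact test). Within the stronger part of the optimal list, its first 979 peaks, CACGTG was at 13.6% of members and 23.3% of in-gene peaks, which did not pass the threshold of 0.05 (Fisher's exact test, adjusted p = 0.0572).

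The bases beside the E-box were uneven. The 77 members held 80 CACGTG sites, of which 65 (81.3%, 71.0 to 89.1%) read CACGTGA on one strand at least, whereas 7 of the 19 sites in flanks did (36.8%, 16.3 to 61.6%). By octamer, 18 sites were TCACGTGA, 17 ACACGTGA, 17 GCACGTGA and 13 CCACGTGA, each counted with its reverse complement. Sites had a median offset from the summit of 20 bp, and 53 of 80 were within 25 bp.

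The most frequent word at members was not an E-box. GAGAGA was present at 140 members (27.8%, against 6.65% in flanks, exact sign test, adjusted p = 2.00e-16), beside 30.0% of all optimal peaks. GAGAGA had been searched because it was reported as frequent in this series, so its test against flanks is not independent of these data. CTGCGTCTC, a word added after its values were seen, was at 74 members (14.7%, against 0.794% in flanks), beside 12.5% of all optimal peaks; these shares are a description with no test, since the word was chosen on them. CACACA was at 17.3% of members, CGTCTC at 24.6% and ACGCAG at 25.4%. GATAAG was at 2.78% of members and 4.07% of their flanks (exact sign test, p = 0.572). The member windows averaged 48.3% G and C and their flanks 36.0% on the left and 36.3% on the right, while tandem windows had 48.4%. The tests of CACGTG and the other words against flanks took no account of this difference between member windows and their flanks.

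GAGAGA was less frequent at members than at tandem peaks, a difference that depended on the setting. Of tandem peaks 36.9% held it, a difference for members of -9.15 percentage points (95% interval -15.1 to -3.16), with an adjusted p of 0.0161 by Fisher's exact test. Distance to a start moved with it: among summits within 500 bp of a start, GAGAGA was at 22.8% of 320 members and 31.3% of 192 tandem peaks (adjusted p = 0.151 over 8 tests), and among summits farther away at 36.4% of 184 members and 41.4% of 244 tandem peaks (adjusted p = 0.636, Fisher's exact test). The part of distance in the difference was not tested beyond these values. The call also ended with the replicate 1 list alone (-7.40 points, Fisher's exact test, adjusted p = 0.0696) and with the stronger 979 peaks (-8.52 points, adjusted p = 0.251).

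**Figure D4:**
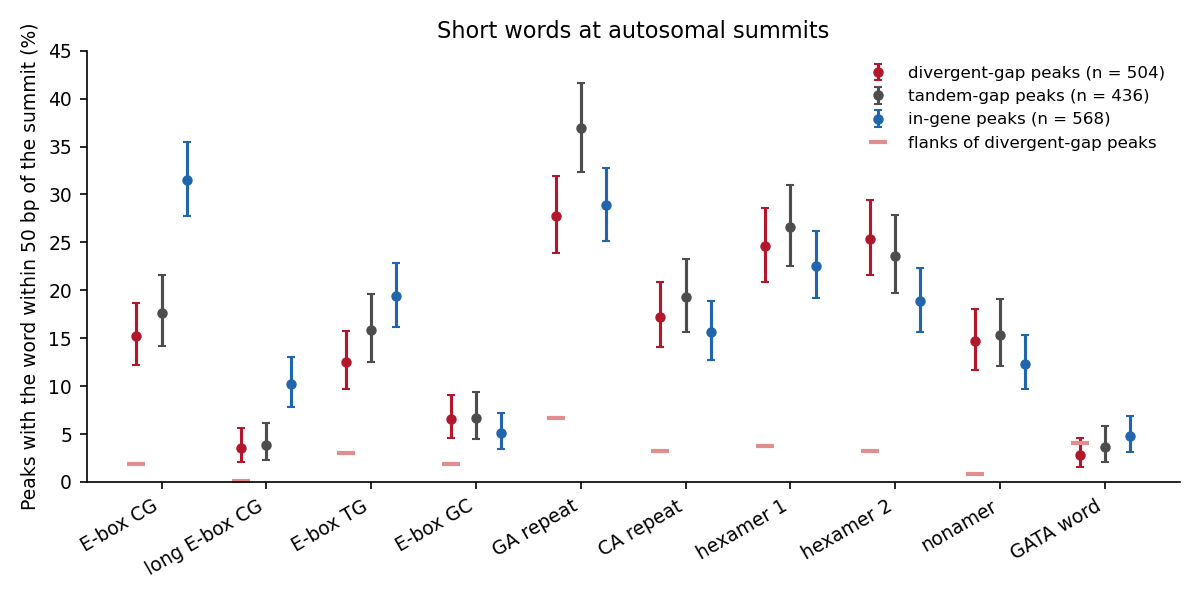
Share of peaks (%) with each of 10 words within 50 bp of the summit, for members (red), tandem peaks (grey) and in-gene peaks (blue), with exact 95% binomial intervals, and mean share in the members' flanks (pale bars). Words stand in the order in which the text lists them: the E-box CACGTG, its longer form, the E-boxes with TG and GC at the centre, the GA and CA repeats, both hexamers, the nonamer that holds them and the GATA word. The first is at 15.3% of members and 31.5% of in-gene peaks; only for the GATA word does the flank mark lie above the member point.

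Among the members, words changed with distance and with signal. Beside GAGAGA (22.8% within 500 bp of the nearer start, 36.4% farther away; Fisher's exact test, adjusted p = 0.00666 over 10 words), CATGTG was at 8.75% of near and 19.0% of far members (adjusted p = 0.00666), CGTCTC at 20.9% and 31.0% (adjusted p = 0.0338) and GATAAG at 1.25% and 5.43% (adjusted p = 0.0309). CACGTG, at 12.8% of near and 19.6% of far members, did not pass (Fisher's exact test, adjusted p = 0.107). Between the strongest 126 and the weakest 126 members GAGAGA was at 32.5% and 16.7%, CTGCGTCTC at 15.9% and 6.35%, and CACGTG at 15.9% and 18.3%; these shares were not tested.

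None of the 4 pairs of words tested was shared unevenly among members beyond the threshold of 0.05. The variant CATGTG was at 3 of 77 members with an E-box CACGTG and 60 of 427 without it (3.90% and 14.1%; Fisher's exact test, adjusted p = 0.0540 over 4 pairs). The 9-base word was at 7.79% of members with CACGTG and 15.9% without it (Fisher's exact test, adjusted p = 0.158). It was at 31 of 140 members with GAGAGA (22.1%) and at 43 of 364 without it (11.8%). These 2 words can share bases, as they did at 17 of the 31, and 21 of the 31 had a GAGAGA site apart from the longer word, so the pair was not tested. Of the 504 members, 223 (44.2%) held neither of these E-boxes, nor GAGAGA, nor the 9-base word. Where a member near a start held CTGCGTCTC in 1 orientation, the word lay on the strand of the nearer gene in 26 of 40 cases (exact binomial test, adjusted p = 0.646 over 8 tests).

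Gene lists were read against all head-to-head genes: of 7229 autosomal genes whose start faces a neighbour's start across a gap, 896 (12.4%) were beside a member. Of 20 gene lists, those of nutrient signalling and autophagy had the highest shares. In the list of TORC1, the kinase complex that senses nutrients, and AMPK, the kinase that senses low energy, 7 of 9 head-to-head genes were beside a member (77.8%, exact interval 40.0 to 97.2%), and in the autophagy list 5 of 8 (62.5%, 24.5 to 91.5%). These genes had the nearer start in 6 of the 7 and 4 of the 5 cases, where fnip-2 counts only by the weaker member of its gap. Each member has a nearer and a farther neighbour, so such counts are to be read against all lists. Over the 20 lists together, 71 of the 149 genes beside a member had the nearer start. Below, this count is given for some lists only. No test was made over a list, and each list's members had been chosen with results of these data known.

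Of the TORC1 and AMPK genes, fnip-2, a folliculin-interacting protein gene, had the strongest member, with signals of 162 and 272 in replicates 1 and 2. That summit lay 3169 bp from the fnip-2 start and 2803 bp from that of T04C4.3, with 2 E-boxes in the window. A weaker member of this gap, with signals of 24.3 and 70.8, lay nearer to fnip-2, at 2480 bp. The partner of fnip-2 in the same complex, flcn-1, had a member 183 bp from its start with signals of 32.5 and 54.1. Near rheb-1, the small GTPase that activates TORC1, the summit lay 279 bp from its start and 299 bp from that of spk-1, an SR-protein kinase gene, with signals of 43.4 and 90.6. For aakb-2, an AMPK beta subunit gene, signals were 42.1 and 68.1 in a 274 bp gap. The genes ragc-1, a Rag GTPase, and lmtr-3, a part of the Ragulator scaffold, had members with signals of 35.9 and 34.5, and of 21.3 and 30.8, and akt-1, a kinase upstream of TORC1, had signals of 15.2 and 35.9.

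Of the autophagy genes beside members other than lgg-2, unc-51, the kinase that starts autophagy, had signals of 76.5 and 179 at 1442 bp. The gene for the lipidation enzyme ATG-3 faced a summit at 756 bp that was only 22 bp from Y55F3AM.9, with signals of 96.8 and 114. The conjugation-complex gene atg-16.2 had signals of 24.5 and 55.6 at 198 bp, and epg-5, needed for autophagosomes to mature, 26.0 and 36.4 at 249 bp. In these 2 lists together, 9 of 14 members, in 9 of 12 gaps, held CACGTG or CATGTG, and over all members 137 (27.2%) held either word. That difference was not tested, since the genes of both lists had been chosen with results of these data known. The word was CACGTG at fnip-2, atg-3, epg-5 and akt-1, and CATGTG at lgg-2, aakb-2, flcn-1, ragc-1 and atg-16.2.

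Genes of lysosomes and membrane traffic were also beside members. Of the vacuolar ATPase genes, which acidify the lysosome, 4 of 10 were (vha-14, unc-32, vha-8 and vha-1; 40.0%, 12.2 to 73.8%), but 1 of the 4 had the nearer start in its gap. At vha-14 the summit was 143 bp from the start, with signals of 41.6 and 79.6. None of the 4 held CACGTG or CATGTG. Of lysosomal hydrolase and membrane protein genes 3 of 14 were beside a member (lipl-2, scav-3 and rnst-2; 21.4%, 4.66 to 50.8%), and of membrane traffic genes 5 of 16 (31.3%, 11.0 to 58.7%), among them rab-1, with signals of 74.1 and 113, and rab-5, with 63.5 and 104. Among genes for other E-box proteins, hlh-11 and sbp-1, the SREBP homologue, 2 of 4, had members with signals of 35.9 and 75.3 and of 37.0 and 42.0.

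Ribosomal protein genes were the largest group of list genes beside members. Of 55 head-to-head cytosolic ribosomal protein genes 29 were beside a member (52.7%, 38.8 to 66.3%), in 28 gaps, but 14 of the 29 had the nearer start. The strongest were at rpl-15, with signals of 82.9 and 165 in replicates 1 and 2, rps-1, with 80.7 and 141, and rps-19, with 66.4 and 101. In the 30 members of these gaps 1 held CACGTG, 2 CATGTG, 3 GAGAGA, 2 CTGCGTCTC and 7 CACACA, and 28 lay within 500 bp of a start. Over the 320 members at that distance CACGTG was at 12.8%, CATGTG at 8.75%, GAGAGA at 22.8%, CTGCGTCTC at 12.5% and CACACA at 16.9%; no difference from the ribosomal protein members was tested.

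Translation factors had 9 of 26 head-to-head genes beside a member (34.6%, 17.2 to 55.7%), chaperones 13 of 33 (39.4%, 22.9 to 57.9%) and nuclear pore and transport genes 11 of 31 (35.5%, 19.2 to 54.6%). Of the chaperone genes, 3 of the 13 had the nearer start. Among them hsp-6, the mitochondrial HSP70, had signals of 63.6 and 88.5, and hsp-60, the mitochondrial chaperonin, 35.0 and 91.4. Among transport genes the exportin gene xpo-1 had a member with TCACGTGA 415 bp from its start and 441 bp from uvs-1, with signals of 113 and 140. Respiratory chain genes gave 6 of 21 (28.6%), the proteasome 6 of 22 (27.3%), splicing 7 of 31 (22.6%), mitochondrial ribosomal proteins 7 of 33 (21.2%) and aminoacyl-tRNA synthetases 3 of 16 (18.8%), with intervals that all include 12.4%.

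Gene families of sensory, cuticle and regulatory function were near or below the share of all genes. Chemoreceptor genes, which serve smell and taste, were beside a member in 12 of 449 cases (2.67%, 1.39 to 4.62%), and 1 of the 12 had the nearer start. Collagen genes, which build the cuticle, gave 2 of 51 (3.92%, 0.478 to 13.5%), nuclear hormone receptors 8 of 93 (8.60%, 3.79 to 16.2%), histones 7 of 44 (15.9%, 6.64 to 30.1%) and homeobox genes named ceh 3 of 16 (18.8%, 4.05 to 45.6%). Several of these stood across the gap from a gene of another list: col-38 from rpl-5, nhr-274 from rps-28, and ceh-62 from npp-19. Opposite ceh-62 the start of npp-19, a nuclear pore gene, was the nearer, at 182 bp. The rps-28 start was the nearer at the strongest member of its gap, at 449 bp, and the nhr-274 start at a weaker member, at 4707 bp.

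**Figure D5:**
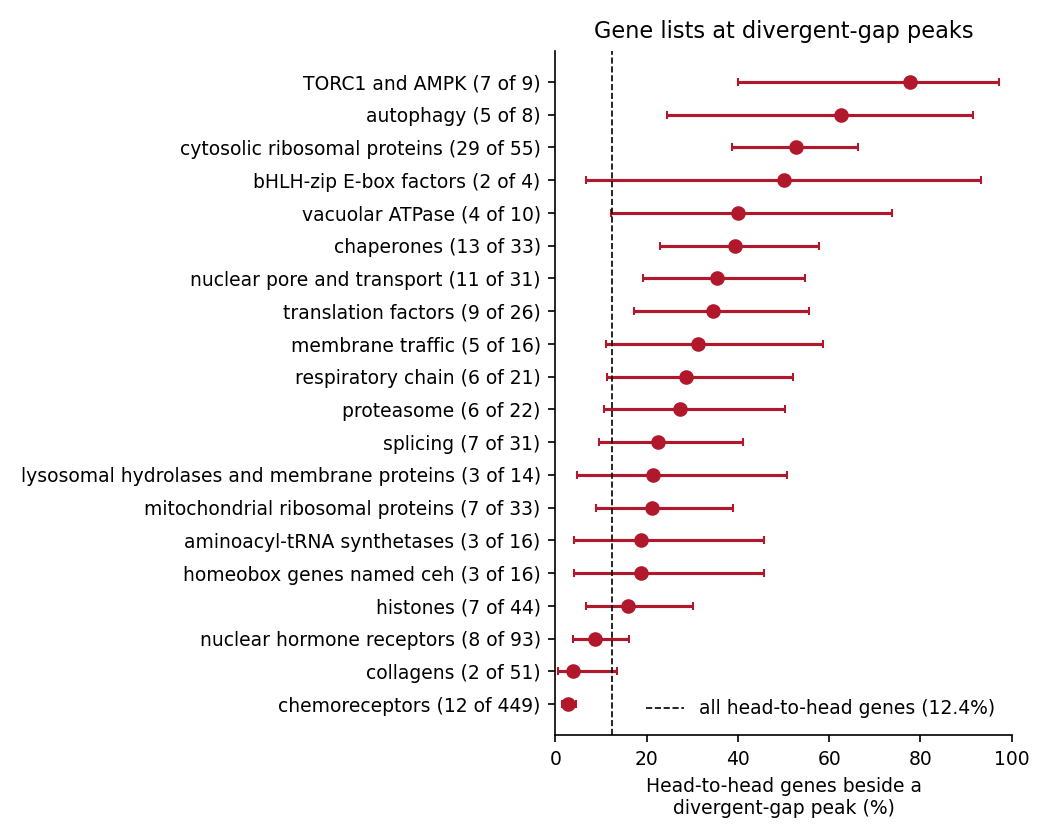
Head-to-head autosomal genes of each list that were beside a member, in % (points) with exact 95% binomial intervals (bars); counts are beside each name and the dashed line is the 12.4% of all head-to-head autosomal genes. The TORC1 and AMPK list (7 of 9), autophagy (5 of 8) and cytosolic ribosomal proteins (29 of 55) have the highest shares, and chemoreceptors (12 of 449) the lowest.

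In 15 of the 448 member gaps both neighbours were list genes, beside 165 of all 3641 divergent gaps, and at least 1 neighbour was in 134 of the 448 and 843 of the 3641. The strongest such pair was his-72, a histone H3.3 gene, and rpt-6, a proteasome ATPase gene, with signals of 47.4 and 130 in replicates 1 and 2 and CACGTG in the window. Others joined rab-11.1 to rpl-7, rps-10 to rpl-24.1, hsp-110 to rpn-3, rpl-36.A to nuo-1 and atp-5 to lmtr-3. The histone pairs his-31/his-32, his-67/his-68 and his-60/his-59 lay in gaps of 321, 368 and 256 bp; histone genes have near-identical copies, and the sources used here do not say how reads that match several were placed.

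The gaps with most summits were long. Between F54F12.1 and Y39E4B.6 on chromosome III, a gap of 15313 bp, 6 summits lay 1438 to 4359 bp apart with pooled signals of 54.8 to 230. Only the weakest of the 6 held CACGTG in its window. Between F53H2.3 and fce-2 on chromosome V, a gap of 13541 bp, 4 summits had pooled signals of 49.5 to 114, and 3 of the 4 held CACGTG. Between jmjd-2, a histone demethylase gene, and hmg-1.1 on chromosome II, a gap of 7091 bp, 4 summits had pooled signals of 66.8 to 89.5. Those 4 windows held no CACGTG, which was at 15.3% of all 504 members. The rule looked at protein-coding genes alone: 55 member summits (10.9%, 8.33 to 14.0%) lay inside an annotated noncoding gene, 49 of them of the class ncRNA, beside 36 of 436 tandem summits (8.26%; Fisher's exact test, p = 0.185). Genes for tRNA and for snoRNA were each within 100 bp of 7 member summits.

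Further down the pooled list the share of divergent peaks was lower. Of the autosomal peaks ranked 1960 to 3918 in the pooled list 21.7% were divergent (19.7 to 23.8%), of those ranked 3919 to 7836 18.6% and of the rest 14.9%, beside 32.7% in the optimal list. The same held in each replicate: 32.9% of the 1557 autosomal peaks among the strongest 1959 of replicate 1 and 30.4% of the 1553 of replicate 2 were divergent, and 15.2% and 13.9% of the lowest class of each list. Along the same pooled classes GAGAGA was at 27.8, 20.6, 18.1 and 12.3% of divergent peaks and CTGCGTCTC at 14.7, 6.40, 5.62 and 2.78%.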

How the data were processed

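HLH-30-GFP peaks from 2 biological replicates of 1 group were analysed. Per the deposited descriptions, the authors called peaks and background for each replicate and for both together against a control, and made an optimal list by IDR from the pooled peaks. The sources used here name no aligner, caller or IDR cut-off. Each peak's signal is the authors' deposited value against that control; its scaling is not stated, so it was used only to describe and rank peaks within a list. Read totals were not used, so depth is unknown.

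From these lists in ce11, members were found with Ensembl release 115 gene models of WBcel235, counting positions from 1 (Python 3.11.15, pandas 2.3.3, NumPy 2.4.6, SciPy 1.17.1). A gap lies between neighbouring protein-coding gene spans; gene edges served as starts. Summits were matched within 100 bp. Words were searched within 50 bp of summits and in windows centred 500 bp away. Centres were tested against flanks by two-sided exact sign tests, keeping the larger p of both flanks, and peak classes by two-sided Fisher's exact tests with Benjamini-Hochberg adjustment; intervals of differences are Newcombe's. Word counting was checked on data with known answers. The optimal list was the 1959 pooled peaks of highest signal, so it has no spread between replicates.

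Genes named flank the 15 strongest members, 1 per gap, the 5 strongest members with CACGTG and with TCACGTGA, the strongest members beside up to 3 genes of each list, the gaps with most summits and the strongest members in gaps under 500 bp. Every member beside autophagy, TORC1 and AMPK, vacuolar ATPase and lysosomal genes, both genes of pairs of list genes, the narrowest gaps and the members at the list's end were named beyond that rule, after their values were seen. The members and the 20 gene lists were chosen with earlier results of these data known; 2 list symbols matched no gene, and rnst-2 was moved from the vacuolar ATPase to the lysosomal list after its value was seen. Alternatives changed the window, the list, the gap length, the summits per gap, the gene counted and the match distance; those by chromosome, by distance to a start, outside every annotated gene and against in-gene peaks were added after seeing the data.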

Additional observations from a re-analysis of the deposited data

Results flagged for a closer look

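The E-box CACGTG was also present at divergent peaks that the optimal list leaves out. In the pooled list, autosomal divergent peaks ranked 1960 to 3918 numbered 344, and 60 of them (17.4%, exact interval 13.6 to 21.9%) held CACGTG within 50 bp of the summit, against 1.74% in their flanks (two-sided exact sign test, p = 3.91e-10). It was at 15.3% of the 504 members. The replicates differed in this: among divergent peaks of those ranks CACGTG was at 24 of 349 in the replicate 1 list (6.88%, 4.46 to 10.1%) and at 60 of 320 in the replicate 2 list (18.8%, 14.6 to 23.5%). Among the 1959 strongest peaks of each list, the shares of divergent peaks with it were 12.9% in replicate 1 and 14.6% in replicate 2. The difference between the replicates was not tested.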

How the results depend on the processing

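Of 90 alternative values over the results listed here and single gene lists, 66 stayed on the same side of the threshold in the same direction, or within their interval, 12 lost their call, 12 moved and 0 reversed. The lower share of GAGAGA at members than at tandem peaks (-9.15 points) kept its direction but not its call with a window of 25 bp (-4.74) or 100 bp (-8.52), the stronger part of the list (-8.52), gaps of at most 2000 bp (-9.22), summits within 500 bp of a start (-8.44) or farther (-4.98), without chromosome II (-8.31), III (-8.18) or IV (-7.89), and outside every annotated gene (-7.46). With 1 replicate's list at a time it ranged from -9.22 to -7.40. The lower share of CACGTG at members than at in-gene peaks lost its call only in the stronger part of the list (-9.73), and ranged from -20.1 to -9.48 with single replicates. The causes of these changes were not tested. Some settings left fewer peaks, while the windows of 25 bp and 100 bp kept the same peaks. With gaps of at most 2000 bp members were 25.5% of autosomal peaks outside longer gaps. Summits per megabase of divergent gap were 25.8 in the stronger part of the list, 44.8 with 1 summit per gap and 152 in gaps of at most 2000 bp. List genes beside members numbered 149, 76 in the stronger part and 71 counting only the gene with the nearer start. The share matched in both replicates was 97.2%, 99.6% in the stronger part, 99.3% in gaps of at most 2000 bp and 87.1% within 50 bp. No paired analysis was possible because the series has a single group. Depth is unknown, so weaker peaks may be missing from either replicate.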
